A study of Homo sapiens with 28 samples.

Results

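The AP-1 transcription factor was followed through the RNA of 8 of its subunit genes, FOS, FOSB, FOSL1, FOSL2, JUN, JUNB, JUND and ATF3, in CHL-1 melanoma cells given the BET inhibitor BAY1238097. The members were every gene of this name list on the array, each represented by its probe set with the highest mean log2 intensity, and all 8 were found among 22357 genes represented. Only FOSB had more than 1 probe set. CHL-1 is an established human melanoma line, grown here in DMEM with fetal calf serum and seeded the day before treatment. BET proteins read histone acetylation and help RNA polymerase to elongate, and the inhibitor blocks their acetyl-lysine pockets. The arrays covered BAY1238097 at 75 nM for 4 h (n = 5), 468 nM for 4 h (n = 5), 75 nM for 24 h (n = 5) and 468 nM for 24 h (n = 5), with the vehicle DMSO for 4 h (n = 4) and 24 h (n = 4) as controls. All 28 arrays held the same line. The labels do not state whether arrays within a group stem from separate cultures, so p-values measure array-to-array spread that may be technical only.

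AP-1 is a dimer of basic leucine zipper proteins. JUN, JUNB and JUND can pair with each other or with a FOS protein, while FOS, FOSB, FOSL1 (also called FRA1) and FOSL2 (FRA2) need a JUN partner to bind DNA. ATF3 is a stress-induced relative that pairs with JUN proteins. Most of these genes are immediate early genes, whose short-lived transcripts respond quickly to growth factors and stress through the MAP kinases. In melanoma, JUN and FOSL1 are known for their link to the undifferentiated, invasive state. Of the defining markers of the lineage, only SOX10 was well expressed (group means of 8.88 to 10.07 on the log2 scale), while MITF, PMEL, MLANA, TYR and TYRP1 had no group mean above 3.51. AXL, a receptor of the undifferentiated state, had group means of 7.60 to 8.56, and NGFR 5.75 to 6.94, while the other 3 of 5 markers of that state, EGFR, WNT5A and SOX9, were below the filter used for testing, with no group mean above 3.68. SOX10 was lower at 468 nM than in DMSO at 4 h (-0.73 ± 0.13, adjusted p = 4.31e-04) and higher at 24 h (0.58 ± 0.13, adjusted p = 8.51e-04), and its part in the results below was not tested. All 4 keratinocyte and both endothelial markers represented on the array were below the filter, and 1 of 3 fibroblast markers, FBLN1, was above it (group means of 5.16 to 5.57). CD68, the 1 leukocyte marker above it, was higher than in DMSO by 0.81 ± 0.17 (log2, SE; limma adjusted p = 0.00144) at 468 nM and 4 h, with group means of 4.36 to 5.24. It was also higher at 75 nM and 4 h (0.71 ± 0.17, adjusted p = 0.0405). CD68 passed the filter on treated arrays alone, as its DMSO arrays averaged 4.43 ± 0.11 at 4 h and 4.37 ± 0.27 at 24 h (SD). Its calls at 4 h thus come from a gene admitted through the groups in which it was high. The part of CD68 in the results below was not tested, and PTPRC, which marks leukocytes, stayed at or below a group mean of 3.90.

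The sequences upstream of 5 genes are shown: JUN, JUNB, JUND and ATF3, which were called higher at 468 nM and 4 h, and FOS, which was not called. They are the 250 bases before the annotated start, from RefSeq on GRCh38.p14, with capitals marking TGACG (one arm of the cyclic AMP response element, on either strand, so that CGTCA is its reverse), the full element TGACGTCA, and TGACATCA, the variant known from the JUN promoter. The windows were chr1:58784048-58784297 (- strand) for JUN, chr19:12791236-12791485 (+ strand) for JUNB, chr19:18281623-18281872 (- strand) for JUND, chr1:212565157-212565406 (+ strand) for the first of the 2 listed starts of ATF3, and chr14:75278578-75278827 (+ strand) for FOS.
JUN: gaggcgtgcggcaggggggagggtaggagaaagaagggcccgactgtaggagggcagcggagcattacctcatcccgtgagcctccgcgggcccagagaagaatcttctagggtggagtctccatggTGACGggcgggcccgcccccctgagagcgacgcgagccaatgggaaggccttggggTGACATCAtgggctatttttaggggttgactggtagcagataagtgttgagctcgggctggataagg
JUNB: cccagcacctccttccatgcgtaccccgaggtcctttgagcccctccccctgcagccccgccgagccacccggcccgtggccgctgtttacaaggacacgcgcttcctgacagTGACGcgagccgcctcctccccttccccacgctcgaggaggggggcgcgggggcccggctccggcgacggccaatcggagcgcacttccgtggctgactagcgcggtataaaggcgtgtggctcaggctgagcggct
JUND: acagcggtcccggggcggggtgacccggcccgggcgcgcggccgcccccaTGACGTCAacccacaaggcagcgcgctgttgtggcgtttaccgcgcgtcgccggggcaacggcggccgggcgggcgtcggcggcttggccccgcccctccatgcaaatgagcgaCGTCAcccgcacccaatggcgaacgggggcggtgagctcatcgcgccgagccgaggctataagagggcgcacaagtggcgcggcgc
ATF3: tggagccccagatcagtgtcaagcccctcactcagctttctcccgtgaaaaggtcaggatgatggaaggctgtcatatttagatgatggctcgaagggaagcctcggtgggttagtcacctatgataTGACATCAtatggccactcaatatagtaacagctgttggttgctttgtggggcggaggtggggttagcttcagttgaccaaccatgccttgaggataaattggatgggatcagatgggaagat
FOS: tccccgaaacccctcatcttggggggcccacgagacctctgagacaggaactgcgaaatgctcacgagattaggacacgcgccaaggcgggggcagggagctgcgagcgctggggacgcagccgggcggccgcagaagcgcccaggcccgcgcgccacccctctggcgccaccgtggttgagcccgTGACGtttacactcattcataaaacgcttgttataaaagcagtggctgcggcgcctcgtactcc
Promoters were found for 7 members, all but FOSL1. Both strands were searched for TGACG, and it occurred in 6 of these 7 genes, against 21.2% of 35116 promoters of the same length. These 6 genes had windows of 62.0 to 74.8% G and C, against a median of 58.0% over all promoters. GGGCGG, the GC box, also lay in 6 of the 7 genes (42.6% of all promoters). The part of base composition in these matches was not tested. ATF3 had no TGACG before its 2 listed starts, and no other start of it was searched. Which start these cells use was not tested, so the lack of TGACG holds for these 2 windows only. Its first window had TGACATCA, which was in 2.37% of all promoters. This variant also lay in JUN, the promoter it is known from, so that match was set in advance. The full TGACGTCA, which contains TGACG on both strands, lay only in JUND among the 7 (1.65% of all). The consensus AP-1 site TGANTCA (6.57% of all promoters) and the CArG box bound by the serum response factor (1.16%) had no match in these windows. Bases farther upstream than 250 were not searched. TATAAA lay 25 to 33 bases before the start in FOS, FOSB and JUNB and farther upstream of the second listed start of ATF3, and 10.7% of all promoters held it somewhere. These matches describe letters and are not evidence of binding.

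**Figure D1:**
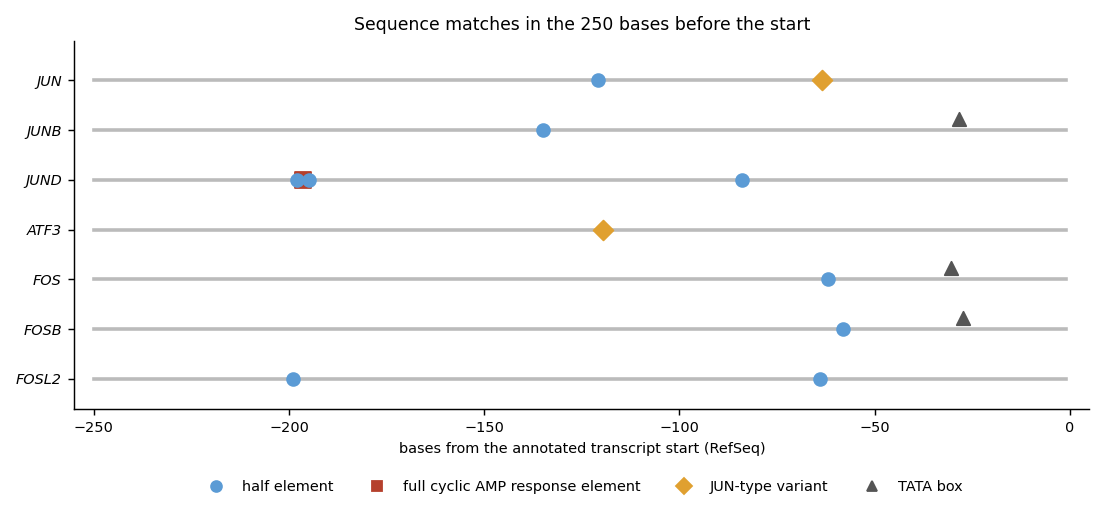
Positions of sequence matches in the 250 bases before the annotated start of 7 AP-1 subunit genes (rows; for ATF3 the first listed start), with the x axis in bases from the start. Circles mark TGACG, the square TGACGTCA, diamonds TGACATCA and triangles TATAAA. Every row carries a circle or a diamond, that of ATF3 a diamond only, and 23.3% of all promoters held TGACG or TGACATCA.

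Values are log2 intensities after RMA, a summary that equalises the distribution of all arrays, so they are relative to the other transcripts on an array, and fewer responding cells cannot be told apart from less RNA per cell. Differences are given as log2 with their standard error, and adjusted p-values are from limma over 9285 genes with 4 or more arrays above 5 on the log2 scale. A gene was called changed below 0.05. The median array value was between 2.44 and 2.49. FOS, FOSL1, JUN, JUNB and JUND had arrays above 5 among both DMSO and treated samples. FOSB passed on treated arrays alone (9 treated and 0 DMSO arrays above 5), and FOSL2 and ATF3 were above 5 on 0 arrays, so both are given from a fit of all 22357 genes with no filter. Shifting arrays to hold 8 reference genes level moved the median difference of all genes by over 0.1 in 5 comparisons: to -0.150 for 468 nM and 4 h and -0.123 for 75 nM and 24 h (each relative to DMSO, -0.027 and -0.016 before the shift), to -0.123 between doses at 4 h (-0.005 before), to -0.094 for the change of the 75 nM effect over time (0.007 before) and to 0.153 for DMSO over time (0.001 before). No called member changed direction under that shift or under repeated quantile normalization. The reference genes themselves responded at 468 nM and 24 h, where 6 of 8 were called, 3 higher and 3 lower, against 45.6% of all genes. The shift is therefore not a fixed yardstick there.

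Among the JUN genes, all 3 rose after 4 h at 468 nM, where 10.9% of all genes tested were called and 3.96% were called higher, and JUN and JUND were still higher at 24 h. For JUN, the founding AP-1 subunit, the values at 4 h were 5.14, 5.72, 4.96 and 5.99 on the DMSO arrays, 5.61, 6.56, 5.62, 5.97 and 6.29 at 75 nM, and 6.57, 7.07, 7.05, 6.83 and 7.15 at 468 nM. The 468 nM arrays lay above every DMSO and every 75 nM array, while the 75 nM and DMSO arrays overlapped. JUN was 1.48 ± 0.20 higher at 468 nM than in DMSO (adjusted p = 1e-05), a 2.79-fold rise. It ranked 23 from the largest rise among the 9285 genes tested. At 75 nM the difference from DMSO was 0.56 ± 0.20 (95% interval 0.14 to 0.98, adjusted p = 0.331), which did not pass. Against 75 nM directly, JUN was higher at 468 nM by 0.92 ± 0.19 (adjusted p = 0.00637).

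At 24 h JUN stood at 6.25, 5.50, 5.63 and 5.98 on the DMSO arrays, 6.26, 6.13, 6.51, 6.08 and 6.46 at 75 nM, and 6.75, 6.41, 6.81, 6.61 and 6.81 at 468 nM. Each 468 nM array again lay above all DMSO arrays, but the doses overlapped. JUN was 0.84 ± 0.20 higher at 468 nM than in DMSO (adjusted p = 0.00153) and 0.45 ± 0.20 higher at 75 nM (adjusted p = 0.274, 0.155 to 0.520 over the alternatives). The change of the 468 nM effect between 4 h and 24 h was -0.64 ± 0.29 (adjusted p = 0.108). It passed only without DMSO 4 h replicate 4 (-0.82, adjusted p = 0.0386). From low to high, the group means of JUN ran DMSO 4 h, DMSO 24 h, 75 nM 4 h, 75 nM 24 h, 468 nM 24 h and 468 nM 4 h, and the arrays of every pair of neighbours in this order overlapped.

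JUND, a JUN protein found in most resting cells, had at 4 h 6.02, 6.52, 6.34 and 6.46 on the DMSO arrays, 6.87, 7.02, 7.21, 7.26 and 6.86 at 75 nM, and 7.67, 7.75, 7.80, 7.63 and 7.55 at 468 nM. The 3 groups did not overlap, and the values climbed with dose. JUND was 1.35 ± 0.18 higher at 468 nM than in DMSO (adjusted p = 5.56e-06), a 2.54-fold rise. At 75 nM the difference of 0.71 ± 0.18 missed the threshold (adjusted p = 0.0611), with 0.0147 to 0.251 over 19 alternatives, of which 6 passed. Between doses, the difference of 0.64 ± 0.17 passed (adjusted p = 0.0370) but missed in 10 of 20 alternatives, where the adjusted p reached 0.188. These were the fit with no filter, the shift by reference genes, and leaving out any of the 5 arrays at 468 nM or 75 nM replicate 1, 2 or 5.

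At 24 h JUND stood at 6.05, 6.46, 6.27 and 6.07 on the DMSO arrays, 6.47, 6.83, 6.94, 6.57 and 6.98 at 75 nM, and 7.44, 6.81, 7.44, 6.34 and 7.44 at 468 nM. Each 75 nM array lay above all DMSO arrays. At 468 nM 3 arrays shared the value 7.44, and replicate 4, at 6.34, lay below the highest DMSO array. JUND was 0.88 ± 0.18 higher at 468 nM than in DMSO (adjusted p = 2.38e-04) and 0.54 ± 0.18 higher at 75 nM (adjusted p = 0.132). Without 468 nM replicate 4 the difference between doses, 0.34 ± 0.17 (adjusted p = 0.129) with all arrays, became 0.52 (adjusted p = 0.00591).

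JUNB can restrain JUN activity. At 4 h its values were 6.54, 7.27, 6.55 and 7.43 on the DMSO arrays, 7.08, 7.17, 6.92, 7.17 and 7.23 at 75 nM, and 7.60, 7.88, 7.85, 7.77 and 7.86 at 468 nM. The DMSO arrays fell into a lower and a higher pair, and the 468 nM arrays lay above all of them. JUNB was 0.85 ± 0.17 higher at 468 nM than in DMSO (adjusted p = 0.00127) and 0.68 ± 0.16 higher at 468 nM than at 75 nM (adjusted p = 0.0188). The difference between doses missed the threshold with no filter (adjusted p = 0.0767), after the shift by reference genes (0.0987) and without 75 nM replicate 3 (0.0602).

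At 24 h JUNB had 7.26, 7.67, 7.19 and 7.44 on the DMSO arrays, 6.94, 7.03, 7.39, 7.37 and 7.61 at 75 nM, and 7.04, 6.85, 7.49, 7.35 and 7.49 at 468 nM, and the 3 groups overlapped. The difference between 468 nM and DMSO was then -0.15 ± 0.17 (95% interval -0.50 to 0.21, adjusted p = 0.507). The 468 nM effect at 24 h was smaller than that at 4 h by a difference of -1.0 ± 0.24, which passed the test of the interaction (adjusted p = 0.00411). JUNB in DMSO was itself 0.45 ± 0.18 higher at 24 h than at 4 h (adjusted p = 0.137, and 0.0460 without DMSO 4 h replicate 4).

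ATF3, a transcription factor induced by many stresses, was dim throughout. Its values at 4 h were 2.59, 2.62, 1.91 and 2.45 on the DMSO arrays, 3.82, 3.67, 3.33, 2.18 and 4.22 at 75 nM, and 4.54, 4.15, 4.83, 4.17 and 4.55 at 468 nM. In DMSO it lay near the median probe set of the arrays, so the size of any rise from there is uncertain. All 468 nM arrays were above all DMSO arrays. Such a gap, in either direction, was found for 13.5% of the genes that passed the filter, which ATF3 did not. In the fit with no filter, in which 3.39% of genes were called, ATF3 was 2.05 ± 0.40 higher at 468 nM than in DMSO (adjusted p = 0.00236). Adding 16 to the linear intensities, which shrinks differences of dim genes, left 0.83 as the lowest of 17 alternatives, all of which passed. At 75 nM the difference was 1.05 ± 0.40 (adjusted p = 0.606).

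The rise of ATF3 was not seen at 24 h, when group means were 3.01 ± 0.68 in DMSO (SD, n = 4), 2.83 ± 0.75 at 75 nM (n = 5) and 2.77 ± 0.66 at 468 nM (n = 5). The interaction at 468 nM was -2.29 ± 0.56 (adjusted p = 0.0122, fit with no filter), or -0.91 with 16 added. ATF3 and JUNB thus shared a 468 nM effect that was lower at 24 h than at 4 h, and for JUN and JUND that difference did not pass the test.

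**Figure D2:**
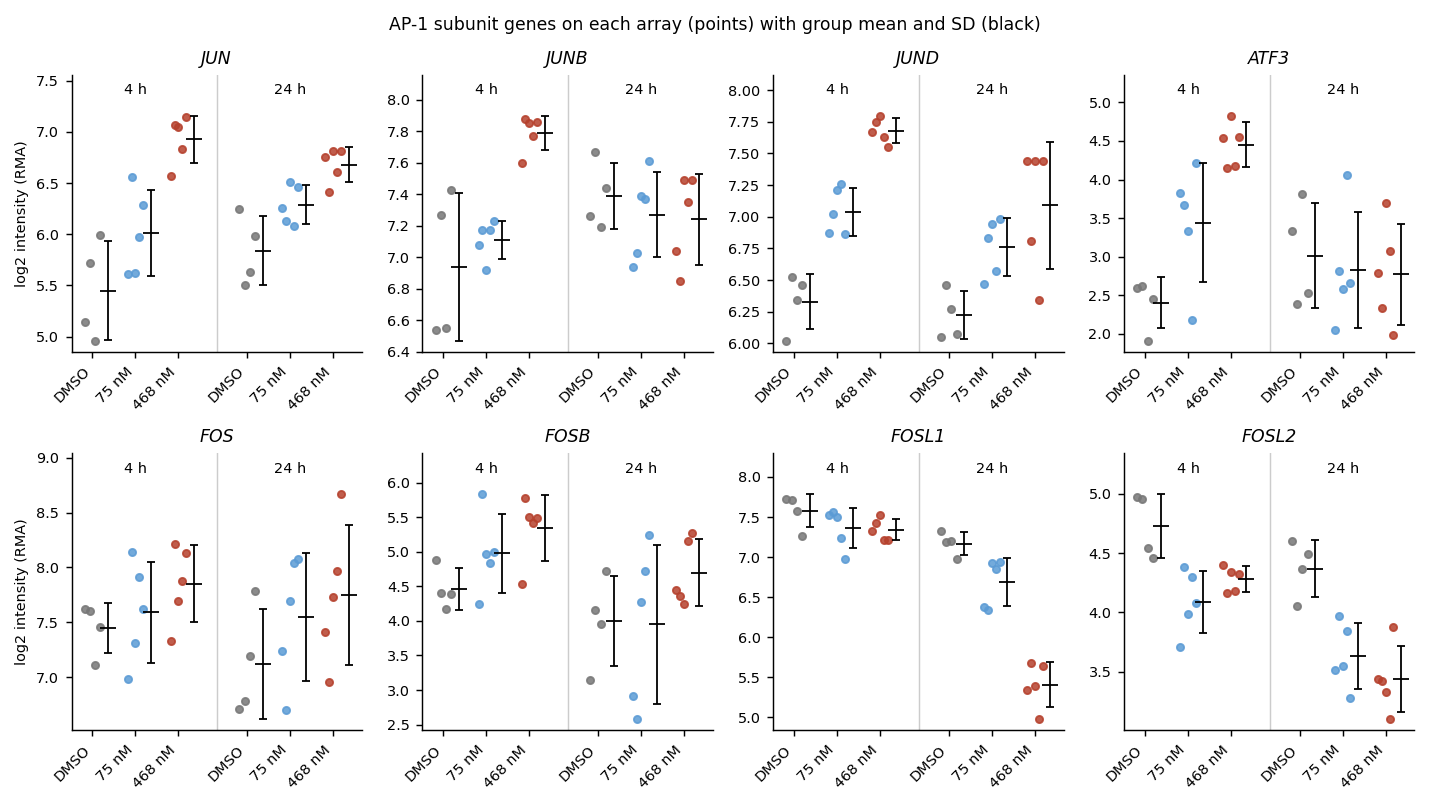
Log2 intensity (y axis) of 8 AP-1 subunit genes on each of 28 arrays (points), by dose and time (x axis), with the group mean and SD beside them in black and a y axis of its own for each gene. JUN, JUND, JUNB and ATF3 at 468 nM and 4 h stand above all DMSO arrays of the same time, and FOSL1 at 468 nM and 24 h stands below all others.

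Of the FOS genes, FOSL1 and FOSL2 fell at 24 h and 468 nM, and FOS and FOSB had no call. FOSL1, a FOS protein that is prominent in invasive tumour cells, had at 4 h 7.73, 7.71, 7.58 and 7.27 on the DMSO arrays, 7.52, 7.56, 7.50, 7.24 and 6.98 at 75 nM, and 7.33, 7.43, 7.52, 7.22 and 7.22 at 468 nM. The 3 groups overlapped, and the differences from DMSO were -0.23 ± 0.15 at 468 nM (95% interval -0.54 to 0.08, adjusted p = 0.414) and -0.22 ± 0.15 at 75 nM (adjusted p = 0.808). At 24 h FOSL1 stood at 7.32, 7.19, 7.20 and 6.98 on the DMSO arrays, 6.38, 6.34, 6.93, 6.85 and 6.94 at 75 nM, and 5.34, 5.68, 5.39, 4.98 and 5.64 at 468 nM. The 3 groups separated in order of dose, each array at the higher dose below each at the lower.

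At 468 nM and 24 h the log2 level of FOSL1 fell by 1.76 ± 0.15 (adjusted p = 1.42e-09), which left 0.294 of the DMSO intensity, and ranked 112 from the largest fall among 9285 genes tested. Against 75 nM the difference was -1.28 ± 0.14 (adjusted p = 2.52e-07). At 75 nM itself the difference from DMSO was -0.48 ± 0.15, without overlap of the arrays but above the threshold (adjusted p = 0.116, 0.0762 to 0.291 over 19 alternatives). The 468 nM effect was larger at 24 h than at 4 h, with an interaction of -1.53 ± 0.22 (adjusted p = 1.81e-05). All 19 alternatives for 468 nM against DMSO at 24 h and all 28 for the interaction passed. From low to high the group means ran 468 nM 24 h, 75 nM 24 h, DMSO 24 h, 468 nM 4 h, 75 nM 4 h and DMSO 4 h, with no overlap between the first and next group or between 75 nM and DMSO at 24 h, and overlap between all later neighbours.

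FOSL2, a relative of FOSL1, had at 24 h 4.6, 4.05, 4.37 and 4.49 on the DMSO arrays, 3.51, 3.97, 3.55, 3.84 and 3.28 at 75 nM, and 3.44, 3.42, 3.33, 3.10 and 3.88 at 468 nM. All treated arrays lay below all DMSO arrays at both doses. Such a gap, in either direction, was found at 24 h for 7.08% (75 nM) and 30.1% (468 nM) of the genes that passed the filter, which FOSL2 did not. The log2 level of FOSL2 fell by 0.94 ± 0.17 at 468 nM (adjusted p = 2.17e-04, fit with no filter), and in all 17 alternatives the call stood, with a difference of -0.45 when 16 was added to the linear intensities. At 75 nM the difference was -0.74 ± 0.17 (adjusted p = 0.0974). The FOSL2 arrays did not overlap between treated and DMSO cells at 4 h either. Of the genes that passed the filter, 3.72% (75 nM) and 13.5% (468 nM) had such a gap at 4 h. The FOSL2 values at 4 h were 4.97, 4.96, 4.54 and 4.46 on the DMSO arrays, 3.71, 4.38, 3.99, 4.30 and 4.08 at 75 nM, and 4.40, 4.16, 4.34, 4.18 and 4.32 at 468 nM. The differences, -0.64 ± 0.17 at 75 nM (adjusted p = 0.225) and -0.46 ± 0.17 at 468 nM (adjusted p = 0.194), did not pass, and the 2 doses overlapped. The interaction at 468 nM, -0.48 ± 0.24 (adjusted p = 0.289), did not pass.

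FOS, the classical serum- and growth-factor-induced gene, showed no called change. Its group means at 4 h were 7.45 ± 0.23 in DMSO (SD, n = 4), 7.59 ± 0.46 at 75 nM and 7.85 ± 0.35 at 468 nM (n = 5 each), and at 24 h 7.12 ± 0.50, 7.55 ± 0.58 and 7.75 ± 0.64. The differences of 468 nM from DMSO were 0.40 ± 0.31 at 4 h (95% interval -0.23 to 1.03, adjusted p = 0.506) and 0.63 ± 0.31 at 24 h (0.00 to 1.26, adjusted p = 0.0974). Its values at 24 h were 6.71, 6.78, 7.19 and 7.79 on the DMSO arrays, 7.24, 6.70, 7.69, 8.04 and 8.08 at 75 nM, and 7.41, 6.96, 7.73, 7.97 and 8.67 at 468 nM. The groups of FOS overlapped in every comparison. FOSB, a close paralogue of FOS, also had no called change, with group means at 4 h of 4.46 ± 0.30 in DMSO, 4.98 ± 0.57 at 75 nM and 5.35 ± 0.48 at 468 nM. Its values at 4 h were 4.88, 4.40, 4.18 and 4.39 on the DMSO arrays, 4.24, 5.84, 4.97, 4.84 and 5.0 at 75 nM, and 4.53, 5.78, 5.51, 5.42 and 5.49 at 468 nM, so the lowest treated arrays lay among the DMSO arrays. Its differences of 468 nM from DMSO were 0.88 ± 0.42 at 4 h (adjusted p = 0.212) and 0.70 ± 0.42 at 24 h (adjusted p = 0.177). Because FOSB entered the test through treated arrays alone, the fit with no filter is given too, with adjusted p of 0.395 and 0.318. The other FOSB probe set had group means of 3.53 to 4.26 and did not follow this order, being highest at 75 nM and 24 h.

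The highest and lowest values of FOS and FOSB recurred in the same stretches of the numbers in the sample titles, whose meaning the labels do not state. The titles fall into 5 runs of 26 consecutive numbers, and the DMSO arrays of the first run were not analysed here. At 4 h the second run held the highest value of both genes in DMSO, at 75 nM and at 468 nM. At 24 h the fifth run did so in the same 3 groups, and the second held the lowest FOS value of each. Within the 4 runs that held both groups, FOS was higher at 468 nM than in DMSO in 4 of 4 runs at 4 h (by 0.09 to 0.77) and in 4 of 4 at 24 h (by 0.25 to 0.95). FOSB was likewise higher at 468 nM in 4 of 4 runs, by 0.90 to 1.24 at 4 h and by 0.09 to 1.21 at 24 h. The runs were also fitted as a fixed block, with 1 effect per run over both times. In that fit FOS at 468 nM and 24 h was called (0.74, adjusted p = 0.0241). FOSB at the same dose and time was not (0.88, adjusted p = 0.0560). The runs are not stated to be batches, and their part in these values was not tested further. At 468 nM JUN and JUND were higher and FOSL1 lower in 4 of 4 runs at each time. For FOSL1 at 4 h, which was not called, these differences were only -0.36 to -0.05. The share of all genes that went 1 way in 4 of 4 runs was not computed. The counts of runs are thus a description and give no support to a change.

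**Figure D3:**
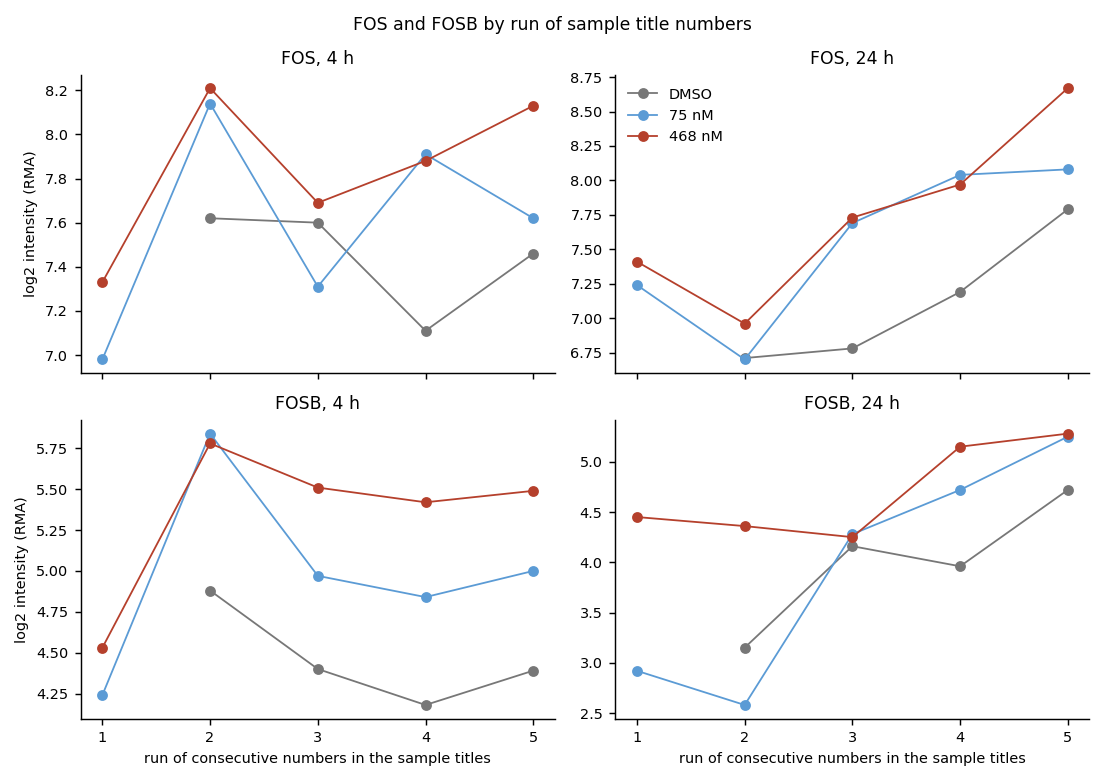
Log2 intensity of FOS and FOSB (y axis) by run of consecutive numbers in the sample titles (x axis), at 4 h and 24 h, for DMSO (no array in the first run), 75 nM and 468 nM. Lines join arrays of 1 group, and at 24 h all 3 groups of both genes peak in the fifth run.

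Counted by comparison, 3 of the 6 members that passed the filter were called at 468 nM and 4 h, JUN, JUNB and JUND, all higher, against the 10.9% given above. At 75 nM and 4 h it was 0 of 6 (0.679% of all genes), and at 75 nM and 24 h 0 of 6 (0.872%). At 468 nM and 24 h, JUN and JUND rose and FOSL1 fell, or 3 of 6, against 45.6% of all genes. Between doses at 4 h the same JUN genes were higher, 3 of 6 against 2.56% of all genes called and 1.13% called higher. At 24 h FOSL1 was the 1 of 6 called, lower, against 30.8% called and 17.4% called lower. For the change of the 468 nM effect over time, FOSL1 and JUNB were called, both negative, 2 of 6 against 23.5% called and 12.7% called negative. In the fit with no filter, 17.9% of genes were called at 468 nM and 24 h, where FOSL2 fell, and 6.70% for the change of the 468 nM effect, where ATF3 was called. At 75 nM that change was called for 0 of 6 (0.0323% of all genes), and DMSO at 24 h against 4 h for 0 of 6 (5.23%). By limma, those of the 6 with an unadjusted p below 0.05 in the comparisons with 0 calls were JUN (0.0109) and JUND (4.67e-04) at 75 nM and 4 h, JUN (0.0369), JUND (0.00529) and FOSL1 (0.00393) at 75 nM and 24 h, and FOSL1 (0.0187) and JUNB (0.0206) in DMSO over time, where 8.72%, 15.9% and 23% of all genes tested had such a p. In the fit with no filter, FOSL2 (8.98e-04) and ATF3 (0.0143) at 75 nM and 4 h, FOSL2 (1.98e-04) at 75 nM and 24 h and ATF3 (0.0384) for the change of the 75 nM effect were also below 0.05, against 6.68%, 9.93% and 5.25% of all genes. For the change of the 75 nM effect 0 of the 6 had an unadjusted p below 0.05 (6.84% of all genes). Arrays of the 2 groups did not overlap for 1 of the 6 at 75 nM and 4 h (3.72% of all genes), 3 of 6 at 468 nM and 4 h (13.5%), 2 of 6 at 75 nM and 24 h (7.08%) and 2 of 6 at 468 nM and 24 h (30.1%). Between doses they did not overlap for 3 of 6 at 4 h (4.31%) and 1 of 6 at 24 h (18.3%). The 2 comparisons with DMSO at each time share their DMSO arrays.

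**Figure D4:**
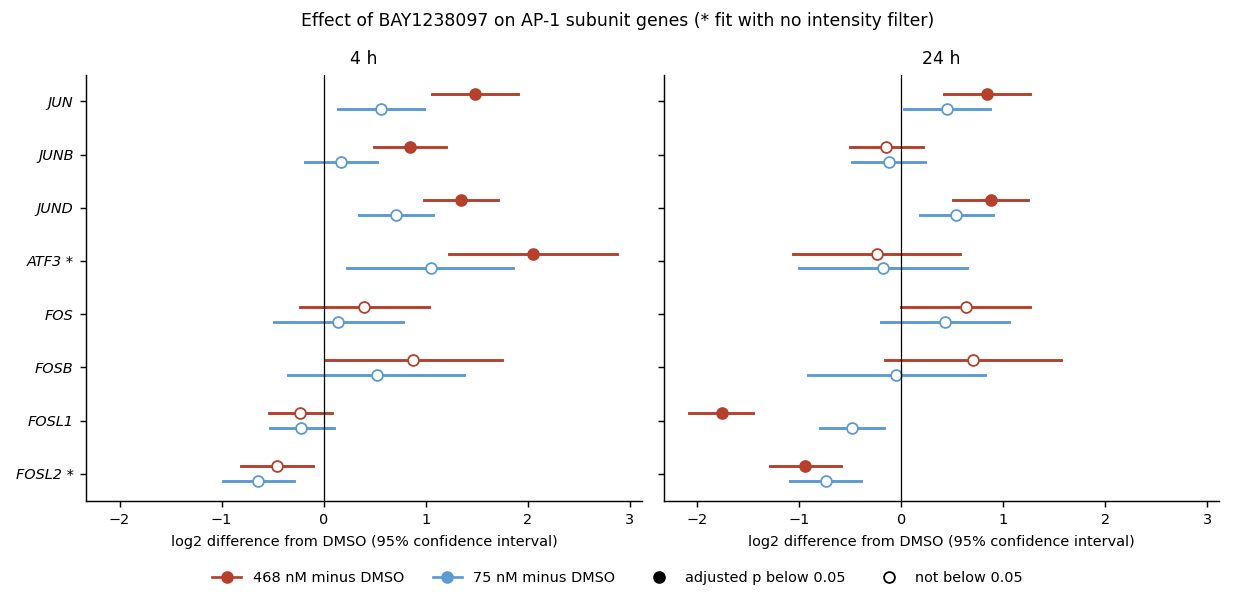
Log2 difference from DMSO with its 95% confidence interval (x axis) for 8 AP-1 subunit genes (rows) at 4 h and 24 h, with 468 nM in red above 75 nM in blue and filled points for an adjusted p below 0.05. The JUN genes and ATF3 lie to the right at 468 nM and 4 h, and FOSL1 and FOSL2 to the left at 24 h.

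Genes whose levels tracked the members most closely were sought by Pearson's r over the 28 arrays, as a description of arrays that share treatments and runs. FOSL1 was followed by TUBB, a tubulin gene, and SLC7A1, a transporter of cationic amino acids (r = 0.96 each). JUND was followed by PLAGL1, a zinc finger growth suppressor (0.92), and TUFT1 (0.90). JUN was followed by GCH1, the first enzyme of tetrahydrobiopterin synthesis (0.88), and the kinase TESK2 (0.84), and JUNB by the co-chaperone BAG3 (0.72) and GCH1 (0.70). FOS, with CCNL1 (0.69) and PKD1 (0.68), and FOSB, with IER5 (0.73) and PIGL (0.71), were followed less closely than JUN, JUND and FOSL1.

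Of 21 other bZIP genes whose proteins can pair with AP-1 subunits or share their sites, 8 were testable. At 468 nM and 4 h 0 rose and 3 fell, 3 of 8 against 10.9% of all genes called (median -0.12, against -0.027 over all genes). MAF, a large MAF protein, fell by 0.71 ± 0.16 (adjusted p = 0.00302). CREB5 (-0.66 ± 0.21, adjusted p = 0.0418) and MAFG (-0.63 ± 0.18, adjusted p = 0.0232) also passed, but in only 10 of 18 and 13 of 18 alternatives, with an adjusted p of up to 0.152 and 0.0990. At 24 h 3 rose and 2 fell, 5 of 8 against 45.6% of all genes called (median 0.06, against -0.019). CREB5, a partner of JUN, fell by 1.18 ± 0.21 (adjusted p = 5.94e-05), or by 0.71 with 16 added to the linear intensities. MAF was then higher (0.49 ± 0.16, adjusted p = 0.0132, up to 0.0833 over the alternatives), with a group mean of 7.33 ± 0.13 at 468 nM and 6.84 ± 0.35 in DMSO. ATF7 (0.46 ± 0.17, adjusted p = 0.0274, up to 0.132) and NFE2L1 (0.26 ± 0.09, adjusted p = 0.0198, up to 0.280) were the next largest.

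Of 30 kinases and transcription factors upstream of AP-1 genes, 18 were testable, and at 468 nM 4 rose and 0 fell at 4 h (4 of 18 against 10.9% of all genes called, median 0.06 against -0.027). At 24 h 6 rose and 3 fell, 9 of 18 and close to the 45.6% of all genes called (median 0.05, against -0.019). MAP2K3, a kinase of the p38 pathway, rose by 1.11 ± 0.12 at 468 nM and 4 h (adjusted p = 2.66e-07) and by 0.55 ± 0.12 at 75 nM (adjusted p = 0.0209). It was the 1 upstream gene called at 75 nM and 4 h. MRTFB and MRTFA, coactivators of the serum response factor, were higher at 4 h (0.60 ± 0.17, adjusted p = 0.0215, up to 0.114, and 0.40 ± 0.11, adjusted p = 0.0162, up to 0.227). So was MAP3K1, a kinase upstream of JNK (0.36 ± 0.11, adjusted p = 0.0279, up to 0.364). The largest changes at 24 h were those of MRTFB (0.96 ± 0.17, adjusted p = 5.55e-05), CREB1, which binds the cyclic AMP response element (0.78 ± 0.14, adjusted p = 4.81e-05), and MAPK8, which encodes the JUN kinase JNK1 (0.74 ± 0.23, adjusted p = 0.0118, and 0.46 with 16 added to the linear intensities). At 24 h MAPK8 averaged 4.97 ± 0.53 at 468 nM and 4.23 ± 0.25 in DMSO (SD). It may thus have passed the filter of 5 through the group in which it was called higher. In the fit with no filter its adjusted p was 0.0345. MEF2D, a factor at the JUN promoter, fell (-0.65 ± 0.14, adjusted p = 3.56e-04).

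Genes that limit AP-1 transcripts, proteins or the kinases behind them numbered 17, of which 16 were testable. At 468 nM 3 rose and 1 fell at 4 h (4 of 16 against 10.9% of all genes called, median -0.03 against -0.027). At 24 h 4 rose and 2 fell, 6 of 16 and below the 45.6% of all genes called (median 0.03, against -0.019). ZFP36, whose protein destabilises FOS and other early transcripts, was higher by 0.86 ± 0.26 at 4 h (adjusted p = 0.0279, up to 0.0959 over the alternatives) and by 1.53 ± 0.26 at 24 h (adjusted p = 2.48e-05). Its relative ZFP36L2 fell by 1.47 ± 0.16 at 24 h (adjusted p = 3.46e-08). DUSP10, a phosphatase of JNK and p38, rose by 0.74 ± 0.18 at 4 h (adjusted p = 0.00667) and by 0.75 ± 0.18 at 24 h (adjusted p = 0.00135). DUSP6, a phosphatase of ERK, rose by 1.32 ± 0.10 at 24 h (adjusted p = 2.54e-10) and by 0.54 ± 0.10 at 75 nM (adjusted p = 0.00954). At 4 h DUSP5, another ERK phosphatase (0.69 ± 0.20, adjusted p = 0.0265, up to 0.109), and DET1, part of the ligase that marks JUN for degradation (-0.50 ± 0.13, adjusted p = 0.0121), passed as well. DET1 was then higher at 24 h (0.39 ± 0.13, adjusted p = 0.0188), and the change of its 468 nM effect over time was 0.89 ± 0.19 (adjusted p = 0.00112).

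Of 50 genes reported as AP-1 targets, 22 were testable. At 468 nM 2 rose and 5 fell at 4 h (median 0.05), and 3 rose and 8 fell at 24 h (median -0.19, against -0.019 over all genes), so 7 of 22 and 11 of 22 were called where 10.9% and 45.6% of all genes were. IL6, also a target of NF-kB, fell by 3.43 ± 0.59 at 4 h (adjusted p = 1.89e-04) and was lower at 24 h (-3.71 ± 0.59, adjusted p = 1.23e-05). At 24 h it averaged 2.60 ± 0.41 at 468 nM, close to the array medians, and 6.31 ± 1.12 in DMSO, so the size of that fall is uncertain, and it was -2.15 with 16 added to the linear intensities. F3, tissue factor (-0.92 ± 0.23, adjusted p = 0.00848), and FST, follistatin (-0.87 ± 0.11, adjusted p = 2.43e-06), fell at 4 h. PHLDA1, a growth-factor-induced gene, rose at both times, by 0.95 ± 0.20 (adjusted p = 0.00159) and 1.44 ± 0.20 (adjusted p = 1.70e-06). At 24 h THBS1, thrombospondin (-1.69 ± 0.25, adjusted p = 4.73e-06), and the adhesion receptor CD44 (-1.30 ± 0.17, adjusted p = 5.66e-07) fell, both with DMSO means below 5. With 16 added to the linear intensities these differences were -0.76 and -0.67. CD44 was the 1 target called at 75 nM and 24 h (-0.73 ± 0.17, adjusted p = 0.0283).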

How the data were processed

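RNA of CHL-1 cells was measured on 28 Affymetrix arrays in 6 groups of 4 or 5. The authors deposited linear intensity values for 53617 probe sets with 0 missing values, summarised with RMA per the submitters' processing notes; the RMA version is not given in the sources used here, nor is a genome build. Intensities were transformed to log2. Probe sets with 1 gene symbol (23871, against 1842 with several symbols and 27904 absent from the table) were named from the platform table, updated through RefSeq GRCh38.p14, and the brightest stood for each gene. limma 3.58.1 fitted 6 group means over the 28 arrays (R 4.3.3, 22 residual and 3.84 prior degrees of freedom), with Benjamini-Hochberg adjustment over all genes tested in each of 9 comparisons. The test was checked on simulated data: of 50 genes set 1 higher in 468 nM at 4 h, 39 of 50 were called among 9285 genes, and of those set 0.5 higher, 22. Arrays have no sequencing depth, and their number limits precision.

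Members and lists were chosen with earlier results of these data known. Named were all members, up to 4 called genes per list with the largest change at 468 nM against DMSO at 4 h and at 24 h, and the 2 genes with the highest r per member. List genes called at 75 nM were named after their values were seen. Alternatives concerned filter, normalization, samples fitted, probe sets, pseudocount, block, array weights and each array left out; the fits with no filter for FOSL2 and ATF3 and the differences within runs were added after seeing the data. No columns were left unused.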

Additional observations from a re-analysis of the deposited data

Results flagged for a closer look

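FOSB on 468 nM 4 h replicate 1 stood apart from its group, at 4.53 against 5.42 to 5.78 on the other 4 arrays. It was the 1 array so found in 48 combinations of gene and group, where chance gives about 1 in 20. That array belongs to the first run of title numbers, in which FOSB was also lowest at 75 nM and 4 h (4.24), and no DMSO array of that run was analysed here. Without it the FOSB difference from DMSO at 4 h was 1.09 (adjusted p = 0.13), against 0.88 with all arrays (adjusted p = 0.212).

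The effect of 468 nM differed between 24 h and 4 h, by the test of the interaction, for FOSL1 (-1.53 ± 0.22), JUNB (-1.0 ± 0.24) and, in the fit with no filter, ATF3 (-2.29 ± 0.56).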

How the results depend on the processing

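Over 1457 alternative values of the 8 members, 1427 kept their side of the threshold, 13 lost a call and 17 gained one. Of the called values 0 turned sign, and 30 of the 1427, all uncalled, did. At 75 nM and 4 h, 0 members were called, and 1, JUND, with the filter at 7, quantile normalization, a pseudocount of 16, array weights, or the replicate block, fixed or random. Between doses at 4 h, 3 were called, and 1, JUN, with no filter or after the shift by reference genes (2 to 3 with an array left out). Between doses at 24 h, 1 was called, and 2 with only the groups compared (JUN added) or array weights (JUND added), and 1 to 2 with an array left out, JUND joining without 468 nM 24 h replicate 4 and FOSB without 75 nM 24 h replicate 5. DMSO over time gave 0 to 1 with an array left out. The causes were not tested. FOS at 468 nM and 24 h also passed without 468 nM 24 h replicate 2 (0.83, adjusted p = 0.0313) or DMSO 24 h replicate 4 (0.85, adjusted p = 0.0355), and FOSL2 at 75 nM and 24 h with the pseudocount (-0.37, adjusted p = 0.0398). The mean of its probe sets took FOSB below the filter, and the filter at 7 removed JUN and FOSB.

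Counts over all genes ranged over the alternatives from 28 to 91 (63 in the main analysis) at 75 nM and 4 h, 616 to 1321 (1013) at 468 nM and 4 h, 18 to 234 (81) at 75 nM and 24 h, 2772 to 4506 (4231) at 468 nM and 24 h, 123 to 324 (238) between doses at 4 h, 0 to 11 (3) for the 75 nM interaction and 103 to 908 (486) for DMSO over time. After the shift by reference genes, 179 genes were higher and 890 lower at 468 nM and 4 h (368 and 645 without), 6 and 79 at 75 nM and 24 h (37 and 44), 1200 and 2472 at 468 nM and 24 h (1896 and 2335), 37 and 161 between doses at 4 h (133 lower among 238 without), and 718 and 60 for DMSO over time (244 and 242).

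The replicate block used runs of title numbers, which the labels do not call replicates. Arrays of 1 run and time deviated together in 23 of 26 pairs (correlation over 0.1, median 0.20). Among arrays of the same time, 13 of 14 at 4 h and 12 of 14 at 24 h correlated best with their own run. That is a hint from the data and not the design. Arrays of 1 run at different times deviated together in only 10 of 40 pairs (median 0.02). For different runs at the same time it was 13 of 104 (median -0.05). The block nevertheless fits 1 effect per run over both times. The block, fixed, moved the all-gene count from 81 to 234 at 75 nM and 24 h and from 486 to 908 for DMSO over time. Low signal limits FOSL2, ATF3 and FOSB.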
